A study of Mus musculus with 32 samples.

Results

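A set of 7 genes of cholesterol synthesis and its control, namely Hmgcs1, Idi1, Fdps, Fdft1, Sqle, Insig1 and Srebf2, were followed in mouse spinal cord microglia isolated by fluorescence-activated cell sorting. They were taken from the deposited tables of female and male libraries by gene symbol, and the estimated counts of their transcripts were summed by gene identifier. All 7 were present in both tables, among 13377 genes in females and 11999 in males, with 14 and 13 of the listed transcripts. Although the set was put together as synthesis and uptake genes, none of the 7 encodes an uptake receptor.

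RNA of 32 libraries was sequenced, all labelled day 14 and all with the genotype label Cx3Cr1-Cre;Rosa26-iDTR. In this line Cre expressed under Cx3cr1 control switches on a diphtheria toxin receptor after tamoxifen, so that diphtheria toxin removes microglia for a time. Cx3cr1 is also active in other myeloid cells, which could carry the receptor too. Libraries labelled as depleted are called repopulated and those labelled as not depleted resident. The female groups were repopulated with fracture (n = 4), resident with fracture (n = 4), repopulated without fracture (n = 3) and resident without fracture (n = 4). The male groups, in the same order, held 7, 5, 2 and 3 libraries. Male sample titles also carry V numbers, whose meaning the labels do not give. These are V71 to V79 without fracture, and V64 to V69 or V99 to V110 with fracture. In males, fracture can therefore not be fully told apart from the V number. Resident libraries are named wild type in their descriptions although they carry the same genotype label, so repopulation cannot be told apart from a difference in genotype or in toxin exposure. Nothing in the labels ties each numbered sample to an animal of its own, and the p-values therefore reflect differences among samples that may be technical.

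Cells make cholesterol from acetyl-CoA through the mevalonate pathway, whose isoprenoid intermediates also feed the prenylation of proteins. The transcription factor SREBP-2 raises the genes of this pathway when membrane sterol is low, and is held in the endoplasmic reticulum by Scap and Insig proteins when sterol is plentiful. In the central nervous system most cholesterol is made locally, and microglia take up cholesterol from myelin debris and pass it on through lipoproteins that carry Apoe.

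The library totals were 16438827 to 18654165 estimated counts in females and 5722993 to 33697535 in males. All 10 microglial markers examined, Cx3cr1, P2ry12 and Tmem119 among them, were listed in both tables, with summed levels of 42872 to 53335 CPM (counts relative to the library total scaled by TMM factors) over female groups and 48795 to 63627 CPM over male groups. Of 7 oligodendrocyte markers, 5 were listed and Mog and Cldn11 were not in the tables. The summed level of the 5 in females was 230 to 285 CPM in repopulated and 220 to 327 CPM in resident libraries with fracture, and 289 to 298 CPM in repopulated and 224 to 429 CPM in resident libraries without it. None of these 5 passed the test of repopulation in either sex. Female and male libraries were prepared with different kits, so sex and kit cannot be told apart, and each sex was tested apart.

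The 7 genes lie on 5 chromosomes of GRCm38 in the GENCODE vM21 annotation. Hmgcs1 lies at chr13:119690379-119708260 and Idi1 at chr13:8885501-8892451, both on the plus strand. Fdps lies at chr3:89093588-89101959 and Fdft1 at chr14:63145150-63179578, both on the minus strand. Sqle lies at chr15:59315077-59331192, Srebf2 at chr15:82147181-82205379 and Insig1 at chr5:28071363-28078662, all on the plus strand. Proximal promoters, taken as 250 bases before to 50 bases after the RefSeq start of each gene (GRCm38.p6), were found for Hmgcs1, Idi1, Insig1 and Srebf2. These RefSeq starts differ from the GENCODE gene positions given above. The promoters of Hmgcs1, the gene of the first enzyme here, and of Idi1, the enzyme gene with the lowest adjusted p averaged over both fracture states in females, are printed because they differ in the sterol element. Capitals mark the core of a sterol regulatory element, TCACNCCAC, and the NF-Y box, CCAAT, which reads ATTGG on the other strand.
Hmgcs1 promoter, chr13:119690101-119690400, plus strand: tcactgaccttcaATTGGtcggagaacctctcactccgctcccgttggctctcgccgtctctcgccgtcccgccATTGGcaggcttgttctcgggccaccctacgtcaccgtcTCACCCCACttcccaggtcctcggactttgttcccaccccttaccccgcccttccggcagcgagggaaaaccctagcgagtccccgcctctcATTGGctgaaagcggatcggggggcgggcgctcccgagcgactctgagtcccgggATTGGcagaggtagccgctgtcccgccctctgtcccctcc
Idi1 promoter, chr13:8885356-8885655, plus strand: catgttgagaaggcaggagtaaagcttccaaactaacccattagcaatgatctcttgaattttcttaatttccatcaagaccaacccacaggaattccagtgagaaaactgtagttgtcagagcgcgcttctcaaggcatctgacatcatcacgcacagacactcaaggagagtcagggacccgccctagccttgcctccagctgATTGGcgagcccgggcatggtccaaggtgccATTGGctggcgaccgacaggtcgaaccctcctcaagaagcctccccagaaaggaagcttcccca
The sterol element core was found in the Hmgcs1 promoter on the plus strand, 137 bases before the RefSeq start, and in none of the other 3 windows. Over all 32851 promoters of the table, 1.24% held this core on either strand. The NF-Y box was found in all 4 windows, 4 times in Hmgcs1 and 2 times in Idi1, against 37.4% of all promoters. The Sp1 box GGGCGG was also found in all 4, against 35.7% of all promoters, and the E-box CACGTG only in that of Insig1 among the 4, against 7.15% of all promoters. None of these motifs overlapped another in the printed promoters, and a match describes the letters and is not evidence of binding.

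Per kilobase of transcript, Fdps was the most abundant of the 7 genes in both sexes, at 21.03 ± 3.12 CPM per kilobase in females (SD, n = 15) and 19.7 ± 3.65 in males (SD, n = 17). Srebf2 followed in females with 16.0 ± 2.78 CPM per kilobase and Hmgcs1 with 13.2 ± 2.36, and each of these 3 overlapped its neighbour within 1 SD. The lower levels in females were 7.39 ± 2.61 for Insig1, 7.14 ± 1.90 for Fdft1, 5.73 ± 1.60 for Idi1 and 5.29 ± 1.49 for Sqle, in CPM per kilobase, and these 4 overlapped within 1 SD. In males, Hmgcs1 stood at 10.7 ± 1.39 and Srebf2 at 10.5 ± 2.65 CPM per kilobase, again next to each other. Fdft1 (4.91 ± 1.304), Insig1 (4.79 ± 1.62), Sqle (3.86 ± 1.24) and Idi1 (3.84 ± 1.10) were the lower 4 in males and also overlapped within 1 SD. All other levels below are in CPM without division by length and compare libraries, not genes.

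Repopulated against resident microglia with fracture was the comparison in which the 7 genes lay lowest in females. The log2 fold change was below 0 for all 7, with a median of −0.39, against 50% of all genes below 0 and a median of −0.00023 over all genes. No member passed the edgeR quasi-likelihood test at a Benjamini-Hochberg adjusted p below 0.05, against 2.35% of all genes called. At an unadjusted p below 0.05 there were 4 of 7 members, against 13.7% of all genes. DESeq2 called 1 member, Fdft1, but it also called more genes in all, 680 against 315 with edgeR. In 4 of 7 genes every repopulated library lay below every resident library, against 5.64% of all genes that were lower without overlap.

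**Figure D1:**
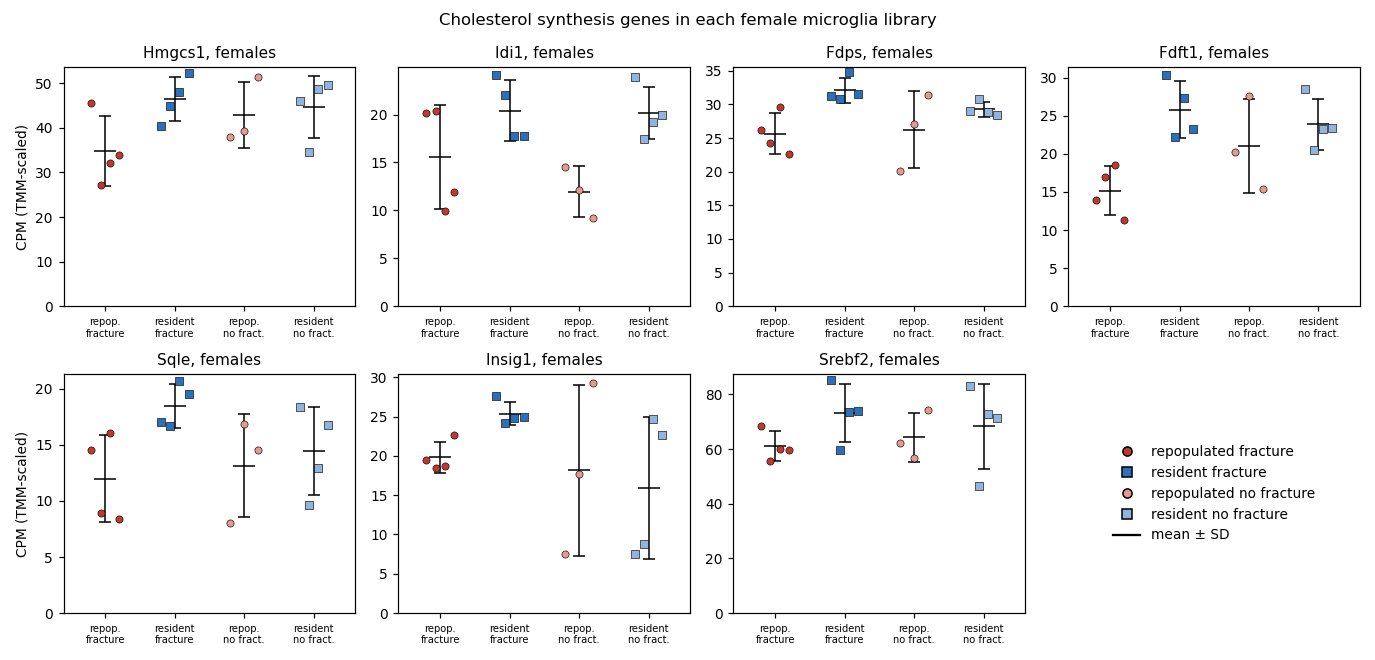
Level of each of the 7 genes in every female library, in CPM scaled by TMM factors (vertical axis, from 0), for the 4 groups from repopulated with fracture to resident without fracture; points are libraries, and lines with bars are mean ± SD. With fracture, the repopulated points of Fdft1, Sqle, Fdps and Insig1 lie below all resident points, while without fracture only Idi1 shows such a gap and Insig1 has 3 libraries below 9 CPM.

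Fdft1 encodes squalene synthase, which joins farnesyl units in the first step that leads only to sterols. In females with fracture it had 14.0, 17.0, 18.5 and 11.3 CPM in repopulated libraries, against 30.4, 22.3, 27.4 and 23.2 CPM in resident libraries. The groups did not overlap, and the log2 fold change was −0.77 ± 0.20 (SE; 95% interval −1.19 to −0.34), a fold of 0.588, with an edgeR adjusted p of 0.0572. This just missed the threshold, and the call depended on the analysis: the adjusted p ran from 0.0123 to 0.0943 over 7 other settings and passed in 4 of them, and passed in 3 of 15 fits with 1 library left out (range 0.0459 to 0.171), namely without resident replicate 2, repopulated replicate 2 or repopulated replicate 3 of the groups without fracture. Without fracture, Fdft1 had 20.3, 27.6 and 15.4 CPM in repopulated libraries, against 28.5, 20.5, 23.2 and 23.3 CPM in resident ones. There the groups overlapped, and the log2 fold change was −0.18 ± 0.22.

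Sqle encodes squalene epoxidase, which adds oxygen to squalene in one of the rate-limiting steps of the pathway. It had 14.6, 8.94, 16.0 and 8.37 CPM in repopulated libraries with fracture, against 17.0, 16.7, 20.6 and 19.5 CPM in resident ones. The groups lay next to each other without overlap, at a log2 fold change of −0.62 ± 0.27 (95% interval −1.203 to −0.05; edgeR adjusted p = 0.314). Fdps, which encodes the synthase of farnesyl diphosphate, had 26.2, 24.2, 29.7 and 22.6 CPM in repopulated libraries with fracture, against 31.2, 30.8, 34.8 and 31.6 CPM in resident ones. The gap between its groups was narrow, and the log2 fold change was −0.32 ± 0.14 (95% interval −0.61 to −0.03; edgeR adjusted p = 0.293).

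Hmgcs1 encodes the cytosolic synthase of HMG-CoA, at the entry of the mevalonate pathway. With fracture it had 45.7, 27.2, 32.2 and 33.9 CPM in female repopulated libraries, against 40.5, 44.9, 48.1 and 52.3 CPM in resident ones. Repopulated replicate 1 lay within the resident range, and the other 3 lay below it, at a log2 fold change of −0.42 ± 0.17 (95% interval −0.77 to −0.07; edgeR adjusted p = 0.241). Without fracture its log2 fold change was −0.06 ± 0.18, with 42.9 ± 7.45 CPM in repopulated libraries (SD, n = 3) and 44.7 ± 6.94 CPM in resident libraries (SD, n = 4).

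Idi1 encodes the isomerase of isopentenyl diphosphate, which supplies the starter unit of the isoprenoid chain. Unlike the others it was separated between the female groups without fracture, where it had 14.5, 12.1 and 9.17 CPM in repopulated libraries, against 23.9, 17.5, 19.2 and 19.9 CPM in resident ones. All 3 repopulated libraries lay below all 4 resident ones, at a log2 fold change of −0.76 ± 0.26 (95% interval −1.30 to −0.21; edgeR adjusted p = 0.15). With fracture, repopulated libraries had 20.1, 20.3, 9.89 and 11.9 CPM and resident ones 24.2, 22.1, 17.7 and 17.7 CPM. Repopulated replicates 1 and 2 lay within the resident range there, and replicates 3 and 4 lay below it, at a log2 fold change of −0.39 ± 0.23.

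The 2 regulators showed smaller or less certain differences in females. Srebf2, the gene of SREBP-2, had 68.6, 55.7, 60.1 and 59.8 CPM in repopulated libraries with fracture, against 85.4, 59.6, 73.6 and 73.8 CPM in resident ones, at a log2 fold change of −0.26 ± 0.16. Its groups overlapped through resident replicate 2. Insig1, which encodes a sensor that keeps SREBP in the endoplasmic reticulum and is itself raised by SREBP, had 19.4, 18.5, 18.7 and 22.7 CPM in repopulated libraries with fracture, against 27.6, 24.1, 24.8 and 24.98 CPM in resident ones. These groups did not overlap, yet the log2 fold change of −0.36 ± 0.39 had a wide error; the fit shares 1 estimate of the spread with the groups without fracture. In those groups Insig1 had 7.56, 17.6 and 29.2 CPM in repopulated libraries and 7.47, 8.74, 24.7 and 22.6 CPM in resident libraries. Repopulated replicate 1 and resident replicates 1 and 2 stood far below the other 12 female libraries, so the level split within both groups and not between them. The log2 fold change without fracture was 0.19 ± 0.42.

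Without fracture, 6 of 7 members were below 0 in females (median −0.13), against 52.4% of all genes. Of the 7, 0 were called by edgeR, against 2.53% of all genes, and 1 had an unadjusted p below 0.05, against 15.3% of all genes. DESeq2 called 0 of the 7 and 676 genes in all. Idi1 was the 1 gene lower without overlap, against 6.44% of all genes. Averaged over both fracture states, all 7 lay below 0 (median −0.24, against 52.5% of all genes and a median of −0.01), and edgeR again called 0, against 8.52% of all genes. At an unadjusted p below 0.05 there were 3 of 7 (20.5% of all genes). The lowest edgeR adjusted p values were 0.0525 for Idi1 (log2 fold change −0.57 ± 0.17, 95% interval −0.94 to −0.20) and 0.0607 for Fdft1 (−0.47 ± 0.15, 95% interval −0.79 to −0.16). DESeq2 called these 2, and its share over all genes is not given here. With 1 library left out, the edgeR adjusted p of Idi1 ran from 0.0346 to 0.13 and passed in 3 of 15 fits, namely without repopulated replicate 1 of the groups without fracture, or repopulated replicate 1 or 2 of the groups with fracture. That of Fdft1 ran from 0.0252 to 0.14 and passed in 2 of 15, without repopulated replicate 2 without fracture or repopulated replicate 3 with fracture. Whether the repopulation difference itself changed with fracture was tested by the interaction, in which 6 of 7 members lay below 0 (median −0.36) and 0 were called, against 0% of all genes. The largest was that of Fdft1, −0.59 ± 0.29 (95% interval −1.21 to 0.04), with an unadjusted p of 0.0635 and an edgeR adjusted p of 1. No member had an unadjusted p below 0.05 in this test, against 3.69% of all genes, and DESeq2 called no member.

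The sorted cells of the repopulated groups also differed in genes listed as markers of other cells. Whether such cells or the microglia themselves carried these transcripts was not tested. Of 10 markers of circulating or border macrophages, 6 were listed in females (Ccr2, Lyve1, Cd163 and F13a1 were not), and their sum was 1472 to 1812 CPM in repopulated and 583 to 650 CPM in resident libraries with fracture, and 1121 to 2049 CPM in repopulated and 512 to 905 CPM in resident libraries without it. Averaged over fracture states, 5 of these 6 rose, against 8.52% of all genes called in either direction. Of 5 B cell markers 3 were listed (Cd79a and Ms4a1 were not), summing to 389 to 461 CPM in repopulated and 545 to 600 CPM in resident libraries with fracture, and 343 to 376 CPM in repopulated and 489 to 624.9 CPM in resident libraries without it. All 3 fell averaged over fracture states. Among the other markers, Pecam1 (endothelial) fell by 2.25 ± 0.36 on the log2 scale in females and fell by 2.95 ± 0.62 in males, while Kdr (endothelial) was at 0.83 ± 0.19 and 1.98 ± 0.41 and Csf3r (neutrophil) at 0.32 ± 0.05 and 0.43 ± 0.07, all with an edgeR adjusted p below 0.05. Slc1a3 (astrocyte) was at −0.24 ± 0.11 in females (adjusted p = 0.223) and fell by 0.41 ± 0.10 in males (adjusted p = 0.00911). The endothelial markers Cldn5, Cdh5 and Tek and the neutrophil markers S100a8, S100a9, Ly6g and Mpo were not listed in either sex. Csf3r was thus the 1 neutrophil marker listed, and it stood at 856 to 1246 CPM over all female libraries. The part of other cells in the values of the cholesterol genes was not tested. In RNA from pools of cells, fewer cells of a type and less RNA per cell cannot be told apart.

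In males the 7 genes lay on both sides of 0. With fracture 3 of 7 were below 0 (median 0.11; 50.9% of all genes), without it 4 of 7 (median −0.08; 52.8% of all genes), and averaged over both 4 of 7 (median −0.02; 52.8% of all genes). The edgeR test called 0 of 7 in each, against 4.91% of all genes with fracture, 7.42% without it and 12.8% averaged over both. DESeq2 also called 0 in each. At an unadjusted p below 0.05 there were 0, 0 and 1 members, against 15.7%, 18.9% and 24% of all genes. None of the 7 was lower without overlap in repopulated males, against 1.58% of all genes with fracture and 18.4% without it. Higher without overlap were 0 with fracture and 2 without it, Srebf2 and Insig1, against 17% of all genes in the comparison without fracture, which had 2 repopulated and 3 resident libraries. Of the macrophage markers 7 were listed in males, and their sum was 751 to 1724 CPM in repopulated and 422 to 882 CPM in resident libraries with fracture, and 830 to 1743 CPM in repopulated and 333 to 409 CPM in resident libraries without it. Averaged over fracture states 3 of these 7 rose, and the 3 listed B cell markers fell, against 12.8% of all genes called in either direction.

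**Figure D2:**
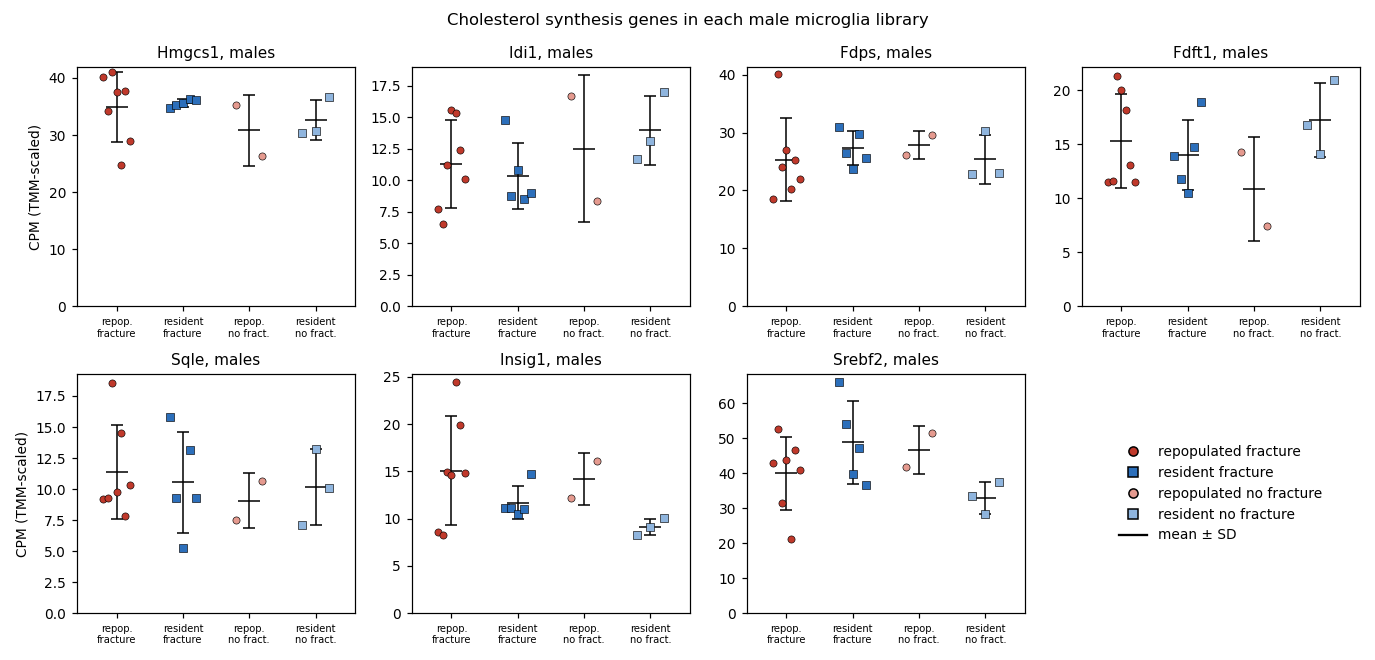
Level of each of the 7 genes in every male library, in CPM scaled by TMM factors (vertical axis, from 0), with groups, points, lines and bars as in the plot of female libraries. Repopulated and resident points overlap with fracture for all 7 genes, and without fracture the repopulated points of Insig1 and Srebf2 lie above the resident ones.

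Insig1 showed the largest male difference averaged over both fracture states. Its lowest, median and highest levels were 8.31, 14.8 and 24.4 CPM in the 7 repopulated libraries with fracture, against 11.2, 11.1, 10.5, 10.99 and 14.7 CPM in resident ones. Without fracture it had 12.2 and 16.1 CPM in repopulated libraries, against 8.29, 9.07 and 10.04 CPM in resident ones. With fracture, the resident libraries were close to each other except replicate 5, at 14.7 CPM. The repopulated libraries with fracture spread to both sides of the resident ones with fracture. The repopulated ones had 8.59, 8.31 and 14.9 CPM at V67 to V69, and 14.6, 24.4, 19.9 and 14.8 CPM at V99 to V102. The V number range entered an alternative fit as a term. There the log2 fold change of Insig1 for fracture over no fracture in repopulated cells was −0.28, against 0.09 in the main fit. Neither was called. The part of the V number in the spread within the group was not tested. For repopulated over resident libraries, the averaged log2 fold change of Insig1 was 0.50 ± 0.22 (95% interval 0.04 to 0.96; edgeR adjusted p = 0.163).

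The enzymes gave no call in males either. Fdft1 had a lowest, median and highest level of 11.5, 13.05 and 21.3 CPM in repopulated libraries with fracture, against 13.9, 11.8, 10.5, 14.7 and 18.9 CPM in resident ones, with a log2 fold change of 0.14 ± 0.23. Without fracture Fdft1 had 14.2 and 7.45 CPM in repopulated libraries and 16.8, 14.1 and 20.9 CPM in resident ones, at −0.68 ± 0.36 (edgeR adjusted p = 0.337). The groups overlapped in both states, and the interaction was 0.81 ± 0.42 (95% interval −0.07 to 1.69; edgeR adjusted p = 0.718). Averaged over both states, the log2 fold changes of the other enzymes were −0.06 ± 0.12 for Hmgcs1, −0.02 ± 0.23 for Idi1, 0.02 ± 0.16 for Fdps (−0.05 with library totals as the only scaling) and −0.02 ± 0.26 for Sqle. Their 95% intervals were −0.31 to 0.20, −0.50 to 0.46, −0.31 to 0.34 and −0.56 to 0.52, so differences of that size in either direction remain possible. Whether males and females differed in any member was not tested, because sex and library kit are 1 split.

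**Figure D3:**
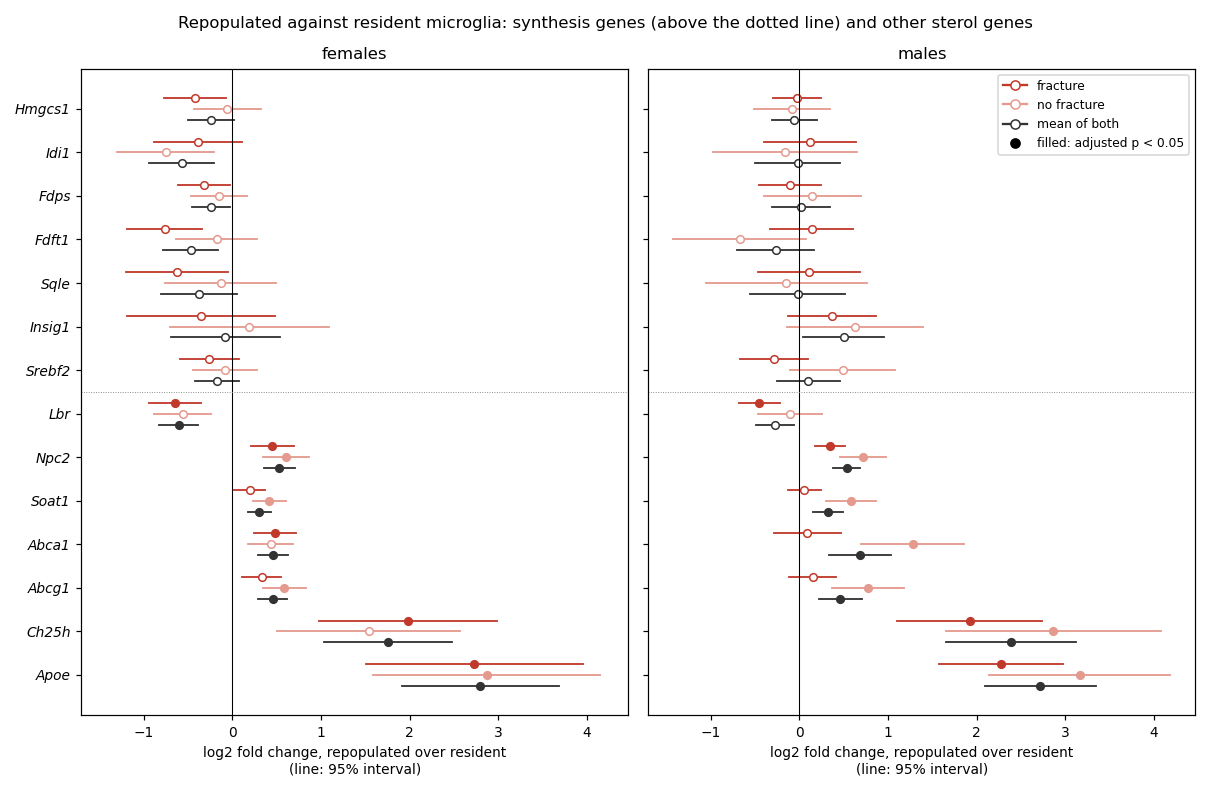
Log2 fold change of repopulated over resident microglia (horizontal axis) with its 95% interval, for the 7 genes above the dotted line and 7 further sterol genes below it, in females and males; colours give the comparison with fracture, without fracture and averaged over both, and filled points have an edgeR adjusted p below 0.05. All points of the 7 genes are open, with female values with fracture left of 0, and the points of Apoe and Npc2 are filled and right of 0 in every comparison, although some of the female calls were lost with 1 library left out.

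No member passed the test of fracture against no fracture in resident or repopulated cells of either sex. In female resident cells all 7 log2 fold changes were above 0 (0.02 for Idi1 to 0.67 for Insig1, median 0.11), while 52.1% of all genes were below 0. The value of Insig1 went with resident replicates 1 and 2 without fracture, at 7.47 and 8.74 CPM, against 24.7 and 22.6 CPM in replicates 3 and 4. Replicate 2 was also the lowest of its group for Hmgcs1, Idi1, Fdft1, Sqle and Srebf2, and the highest for Fdps. In some fits with 1 library left out, the values of Hmgcs1, Idi1 and Srebf2 fell below 0. Of the 7, 0 had an unadjusted p below 0.05, against 4.93% of all genes, and edgeR called 0 members and 0% of all genes. In female repopulated cells 5 of 7 were below 0 (median −0.08), against 51.1% of all genes, and edgeR called 0 members and 0% of all genes. At an unadjusted p below 0.05 there was 1 member, against 10.5% of all genes. That gene was Fdft1, at −0.47 ± 0.21 (edgeR adjusted p = 0.455). No member was separated without overlap in either female comparison, against 3.09% of all genes in resident and 13% in repopulated cells. DESeq2 called no member in any of these fracture comparisons, nor in those of males.

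In male resident cells, Srebf2 had 66.004, 54.2, 39.8, 47.3 and 36.7 CPM with fracture, against 33.6, 28.2 and 37.3 CPM without it. The groups overlapped by 1 library, and the log2 fold change was 0.55 ± 0.23 (95% interval 0.07 to 1.04), with an unadjusted p of 0.0274 and an edgeR adjusted p of 1. In male repopulated cells the lowest, median and highest levels of Srebf2 with fracture were 21.1, 43.0 and 52.8 CPM, against 41.7 and 51.5 CPM without it, at −0.22 ± 0.25. The interaction for Srebf2 was −0.78 ± 0.34 (unadjusted p = 0.0328, edgeR adjusted p = 0.625). At an unadjusted p below 0.05 Srebf2 was the 1 member in that test, against 7.38% of all genes. It was also the 1 such member in resident cells, against 4.26% of all genes. Over all genes, edgeR called 0.00833% in male resident cells, 0.00833% in male repopulated cells and 0.00833% in the interaction, and none of these calls was a member. Insig1 was higher without overlap in male resident cells with fracture, and was the 1 member separated there, against 4.53% of all genes separated in either direction. In male repopulated cells no member had an unadjusted p below 0.05, against 8.29% of all genes. None of the 7 was separated there, against 7.08% of all genes.

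At the level of transcripts, 1 of 14 listed female transcripts passed the edgeR test of repopulation averaged over both fracture states, against 2.48% of all transcripts. This was Fdft1-201 (ENSMUST00000054963.9), the shorter of 2 protein-coding Fdft1 transcripts listed, with 77.4% of the gene's estimated counts. It spanned 7.85 to 17.7 CPM over the 7 repopulated libraries and 16.1 to 24.8 CPM over the 8 resident ones. The ranges overlapped only at their edges, and the transcript fell, with a log2 fold change of −0.73 ± 0.16 (edgeR adjusted p = 0.032). The other listed Fdft1 transcript, Fdft1-204, with 22.6% of the counts, was at 0.22 ± 0.42. Reads shared by the transcripts are divided by estimation, which makes single transcripts less certain than gene sums. The call did not survive leaving out 9 of the 15 libraries in turn, where the adjusted p reached 0.0765, nor a fit with replicate numbers as a term (0.0566), while DESeq2 called 2 of the 14. The share of all transcripts called by DESeq2 was not computed. The main transcripts of the other 6 genes lay between −0.61 (Idi1-201) and −0.11 (Insig1-201). Of the 14, 4 were annotated as retained introns, and together with the other minor transcripts they lay between −0.19 and 0.51 with standard errors of 0.27 to 0.98. In males 0 of 13 transcripts passed, against 4.69% of all transcripts, 1 had an unadjusted p below 0.05, and DESeq2 called 0. Fdft1-201 was at −0.39 ± 0.19 there (edgeR adjusted p = 0.375).

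Of 16 other genes of sterol pathway enzymes, all measured, 1 fell and 0 rose in females averaged over both fracture states (median −0.07), which is not above the 8.52% of all genes called there, and 0 of 16 passed in males (median −0.00032), against 12.8% of all genes. The gene that fell was Lbr, which encodes a nuclear envelope protein with sterol reductase activity. Lbr fell by 0.61 ± 0.10 on the log2 scale in females (edgeR adjusted p = 0.00163), and with fracture by 0.65 ± 0.14 in females (adjusted p = 0.0223) and by 0.45 ± 0.11 in males (adjusted p = 0.0181). The call with fracture held in 9 of 15 female and 13 of 17 male fits with 1 library left out, and each fit that lost it left out a library of the 2 groups compared. It was also lost with replicate numbers as a term (adjusted p = 0.0534 in females and 0.11 in males).

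Of 8 genes of SREBP processing and sterol sensing, 0 passed in females averaged over both states (median −0.17) and 1 fell in males (median −0.01), a share close to the 12.8% of all genes called there. This was Scap, the escort of SREBP, at −0.36 ± 0.11 (edgeR adjusted p = 0.0358), whose call held in 10 of 17 fits with 1 library left out. Of 9 prenyl branch genes, 0 passed in either sex (medians −0.01 in females and 0.02 in males), against 8.52% of all genes in females and 12.8% in males. Of fatty acid synthesis genes, 0 of 8 passed in females and 1 of 7 in males, the latter a share close to the 12.8% of all genes. The gene was Acly, which makes cytosolic acetyl-CoA, at 0.32 ± 0.08 (edgeR adjusted p = 0.0064). Its call held in 16 of 17 fits with 1 library left out and failed without repopulated replicate 2 without fracture (adjusted p = 0.0658).

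Averaged over both fracture states, 5 storage and export genes rose in each sex, while genes of uptake and endosomal egress were mixed. Of 8 measured uptake and endosomal egress genes, 1 rose and 3 fell in females averaged over both states, against 8.52% of all genes called. In males 1 rose and 0 fell, a share close to the 12.8% of all genes called there. Npc2, which binds cholesterol in the lysosome and hands it on, was the gene that rose, by 0.53 ± 0.08 in females (edgeR adjusted p = 0.00097) and 0.53 ± 0.07 in males (adjusted p = 3.72e-05). Those that fell in females were the scavenger receptor gene Scarb1 (−0.36 ± 0.08), the receptor gene Lrp1 (−0.27 ± 0.06) and Mylip (−0.22 ± 0.06), which encodes a ubiquitin ligase. The call of Mylip held in 4 of 15 fits with 1 library left out, and those of Npc2, Scarb1 and Lrp1 in all 15. Among storage and export genes, 5 of 8 rose in females and 5 of 7 in males, with none falling and medians of 0.48 and 0.67, against 8.52% of all genes called in females and 12.8% in males. With fracture 3 of 8 rose in females (Apoe, Abca1 and Ch25h; median 0.30) and 2 of 7 in males (Apoe and Ch25h; median 0.15), against 2.35% and 4.91% of all genes. Without fracture 3 of 8 rose in females (Apoe, Abcg1 and Soat1; median 0.67) and 5 of 7 in males (median 1.02), against 2.53% and 7.42% of all genes. No gene of this list passed the interaction test, in which the lowest edgeR adjusted p was that of Abca1 in males (0.367, at −1.19 ± 0.33, unadjusted p = 0.00182), so a difference between fracture states is not shown. At an unadjusted p below 0.05 there were 3 of 7 in males (Abca1, Abcg1 and Soat1) and 0 of 8 in females, against 7.38% and 3.69% of all genes. The averaged comparison called the same 5 genes in both sexes: Apoe (2.80 ± 0.41 in females, 2.72 ± 0.29 in males), the cholesterol hydroxylase gene Ch25h (1.76 ± 0.34 and 2.39 ± 0.35), the exporter genes Abca1 (0.46 ± 0.08 and 0.68 ± 0.17) and Abcg1 (0.46 ± 0.08 and 0.46 ± 0.12), and Soat1, which esterifies cholesterol for storage (0.30 ± 0.06 and 0.32 ± 0.08). These 5 averaged calls held in all 15 female fits with 1 library left out, and in males those of Apoe, Ch25h and Abca1 in all 17 and those of Abcg1 and Soat1 in 16, failing without repopulated replicate 2 without fracture (adjusted p = 0.0587 and 0.107). Within fracture states the female calls were less stable. With fracture, Npc2 (adjusted p = 0.0486) passed in 2 of 15 fits with 1 library left out and was lost with RLE factors, library totals only or replicate numbers as a term, with adjusted p up to 0.0854. Apoe passed in 9 of 15 with fracture and in 10 of 15 without it, and was lost with replicate numbers as a term in both and with only the groups compared without fracture. Macrophages also make several of these transcripts, and the macrophage marker sums given above were higher in repopulated groups, with ranges that overlapped in males with fracture. Their part in these values was not tested.

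Within groups, the 7 genes did not vary as 1 block. After the group mean was removed from log2 CPM, the 21 pairs of genes had Pearson correlations from −0.53 to 0.66 over the 15 female libraries, with a median of 0.28 and 15 of 21 above 0. Over the 17 male libraries they ran from −0.53 to 0.60, with a median of 0.04 and 12 of 21 above 0. The libraries of a table share their preparation and differ in depth, and these correlations are descriptions.

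**Figure D4:**
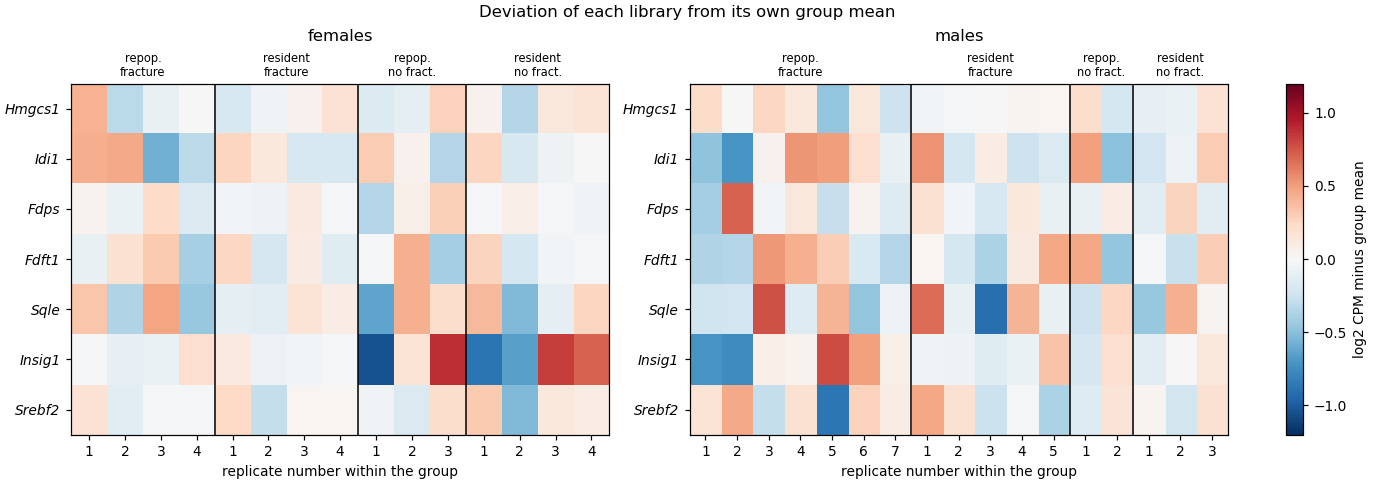
Log2 CPM of each of the 7 genes (rows) minus the mean of its own group in each library (columns, numbered within the group), in females (left) and males (right); red is above and blue below the group mean. Few columns are of 1 colour from top to bottom, and Insig1 shows the strongest colours among female libraries without fracture.

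The genes whose deviations were most like the mean of the 7 were Cep192 (Pearson r = 0.88), Slc25a13 (0.88), Trappc6b (0.87), Tent4a (0.86) and Dmxl2 (0.84) over 15 female libraries, among 9266 genes with a mean of at least 5 CPM. Over 17 male libraries they were Notch1 (0.85), Clasp1 (0.84), C1rl (0.81), Wars (0.81) and Crkl (0.81), among 9078 genes. In both sexes the ranking left out the 7 genes, genes without a symbol and predicted genes (Gm or Rik symbols). Of the 100 genes most like the 7 in each table, 1 was shared, L3mbtl3. Other sterol and lipid genes of the lists used here were few among them, with Erg28 (0.72) and Ch25h (0.69) in females and Fasn (0.63) in males. In the other sex Erg28 was at −0.38 and Fasn at −0.63, opposite in sign, while Ch25h was at 0.60.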

How the data were processed

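The authors deposited 1 table per sex of estimated counts per transcript, rounded to whole numbers. Genome build GRCm38 is named in the submitters' processing notes, together with STAR 2.7.6a, RSEM 1.3.1, cutadapt 3.4, Trim Galore 0.6.7, R 4.1.3, DESeq2 1.34.0, FastQC 0.11.9 and MultiQC 1.11; what each tool did is not given in the sources used here. No listed transcript had 10 counts in fewer than 8 of 15 female or 9 of 17 male libraries, so rarer transcripts were not analysed here.

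Estimated counts were summed by gene identifier, and each sex was fitted alone with 4 groups in edgeR 4.0.16 (R 4.3.3), using TMM factors and the robust quasi-likelihood test. The low-count filter filterByExpr removed no gene. Benjamini-Hochberg adjustment covered every gene of a comparison, with 0.05 as the threshold. A standard error is the log2 fold change over the root of its F statistic. Log2 CPM used a prior count of 2. DESeq2 1.42.0, other scalings and filters, and fits with each library left out were alternatives. The code was tested on simulated counts.

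The 7 genes and the other lists were chosen with earlier results of these data known. Named beside the 7 were up to 4 called genes per list and comparison by size of change, and the 5 genes most like the 7 in each table. Mylip, the sterol genes among the most alike and the microglial markers of the closing section were named after their values were seen. Some genes of the lists are not reported here and were left out of the counts. Transcript lengths, types and gene positions came from GENCODE vM21, whose versioned identifiers match 98.4% of the transcripts of each table, and may differ from the annotation used for counting. Libraries of the same group differed by 11.3 to 78.5 times the sampling noise, so none was the same library deposited again; repeat preparations from 1 animal would differ by more than sampling noise too.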

Additional observations from a re-analysis of the deposited data

Results flagged for a closer look

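In 35 combinations of a member and a group of 4 to 10 libraries, 2 libraries stood apart from their group by Dixon's gap test, which chance alone gives in about 1 in 20 groups. Fdps was at 40.2 CPM in male repopulated replicate 2 with fracture, against 18.5 to 27.0 CPM in the other 6 libraries of that group. Insig1 was at 14.7 CPM in male resident replicate 5 with fracture, against 10.5 to 11.2 CPM in the other 4.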

How the results depend on the processing

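Of the 7 genes, Fdft1 and Idi1 crossed the threshold under some settings. In females with fracture, 1 member (Fdft1) was called with library totals only, DESeq2, a mean of at least 5 CPM or only the groups compared, and averaged over both states 2 (Fdft1 and Idi1) with library totals, DESeq2 or the 5 CPM filter and 1 (Idi1) with the replicate block. With 1 library left out, 0 to 1 members were called in each of these. No other comparison of genes called a member under any setting run. Member transcripts called in females numbered 2 with DESeq2 and 0 to 1 with 1 library left out. The cause of these changes was not tested.

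Over all genes, female calls without fracture were 676 with DESeq2, 143 with the replicate block, 0 with only the groups compared and 51 to 612 with 1 library left out, against 338. With fracture they were 680, 184, 629 and 106 to 488, against 315. In female fracture comparisons they were 3 (resident) and 89 (repopulated) with DESeq2 and 86 (repopulated) with only the groups compared, 1 for the interaction with DESeq2, and 0 to 1 with a library left out in resident cells and in the interaction. Male calls were 293 with the replicate block with fracture, and with 1 library left out 414 to 949 without fracture and 937 to 1641 averaged. For male fracture in resident cells they were 12 with DESeq2, 2 with the replicate block, 5 with only the groups compared and 1 to 2 with a library left out. In repopulated cells they were 52, 56 and 0, with 0 under the 5 CPM filter, 2 with the V number range of the sample titles and 1 to 29 with a library left out. For the male interaction they were 41 with DESeq2, 57 with the replicate block, 2 under the 5 CPM filter, 0 with the V number range and 0 to 14. With library totals only, calls were 116 higher and 228 lower in females without fracture (209 and 129 with TMM), 110 and 276 with fracture (170 and 145), 420 and 1067 averaged (593 and 547), 442 and 501 in males without fracture (564 and 326), 303 and 338 with fracture (364 and 225) and 682 and 1076 averaged (857 and 681).

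Uncalled log2 fold changes near 0 changed sign. With the replicate block these were 0.0039 for Fdps (female fracture, repopulated), −0.021 for Fdps, 0.035 for Sqle and −0.0044 for Srebf2 (male, averaged) and −0.40 for Insig1 (male fracture, repopulated), which was −0.28 with the V number range. Fdps (male, averaged) was −0.054 with library totals. With 1 library left out, the ranges in females without fracture were −0.35 to 0.11 for Sqle, −0.34 to 0.55 for Insig1, −0.23 to 0.018 for Srebf2 and −0.22 to 0.014 for Hmgcs1, and averaged −0.35 to 0.096 for Insig1. For female fracture in resident cells they were −0.0505 to 0.11 for Hmgcs1, −0.071 to 0.11 for Idi1 and −0.0504 to 0.20 for Srebf2, and in repopulated cells −0.24 to 0.66 for Insig1, −0.38 to 0.0804 for Sqle, −0.18 to 0.12 for Fdps and −0.16 to 0.042 for Srebf2. In males without fracture they were −0.42 to 0.094 for Sqle, −0.31 to 0.11 for Hmgcs1 and −0.74 to 0.25 for Idi1, and with fracture −0.063 to 0.31 for Sqle and −0.071 to 0.049 for Hmgcs1. Averaged over male fracture states they were −0.042 to 0.10 for Fdps, −0.15 to 0.11 for Sqle, −0.17 to 0.041 for Hmgcs1 and −0.31 to 0.19 for Idi1. For male fracture they were −0.14 to 0.29 for Sqle in resident cells, and −0.56 to 0.43 for Idi1, −0.096 to 0.30 for Insig1 and −0.014 to 0.40 for Hmgcs1 in repopulated cells. For the male interaction they were −0.14 to 0.28 for Hmgcs1 and −0.13 to 0.86 for Idi1.

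Whether the replicate numbers pair the samples could not be decided, since removing the mean of such small groups ties the deviations to each other. Deviations of same-numbered libraries correlated from −0.57 to 0.44 in females, above 0.1 in 4 of 21 pairs, and from −0.091 to 0.090 in males, above 0.1 in 0 of 17. Those of other-numbered libraries ran from −0.46 to 0.55 in females and from −0.15 to 0.18 in males. The member transcript Fdft1-201 lost its call under the replicate block. The groups of 2 and 3 libraries limit the precision, as the width of the 95% intervals shows.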

Other observations

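The microglial markers themselves moved with repopulation. Averaged over both fracture states, 1 of 10 rose and 5 fell in females (median log2 fold change −0.24), and 0 of 10 rose and 5 fell in males (median −0.26) by the edgeR test. Over all genes, 8.52% were called in females and 12.8% in males. P2ry12, Gpr34, Cx3cr1 and Tmem119 were among those that fell in both sexes, and Trem2 was the 1 that rose in females. Of 11 immediate-early and dissociation genes, 10 were listed. Their summed level in males was 1004 to 4106 CPM in repopulated libraries with fracture, against 971 to 1149 CPM in resident ones, and in females 457 to 517 CPM in repopulated against 488 to 584 CPM in resident libraries with fracture. Without fracture it was 893 to 988 CPM in male repopulated against 932 to 1039 CPM in male resident libraries, and 412 to 575 CPM in female repopulated against 497 to 652 CPM in female resident libraries, so ranges overlapped in each comparison. Averaged over fracture states, the edgeR adjusted p of these 10 genes ran from 0.134 to 0.826 in females and from 0.107 to 0.998 in males.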
